A study of Mus musculus with 18 samples.

Results

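Clones of genes for cyclins, cyclin-dependent kinases, replication licensing, the replication fork and mitosis were followed through the first days of embryoid body (EB) formation from mouse embryonic stem (ES) cells. A clone belonged to the set when its single gene symbol began with Ccna, Ccnb, Ccnd, Ccne, Ccnf, Ccng, Orc, Rfc, Cks, Aurk, Bub, Plk, Pola, Pold or Prim, with Cdk, Cdc or Mcm and a number, or was Pcna, Top2a, Rrm1 or Rrm2. Cdc42 was excluded, and each condition had to have a value from 1 array or more. These letters took in 125 clones of 83 genes, out of 15360 clones printed, of which 9866 carried 1 gene symbol. All 125 had the values asked for, 70 of them on every array. Slide 1 of the clone set held 62 of them and slide 2 held 63, and 30 genes had more than 1 clone. No clone of Ccnb1 or Mcm4 was among them. The letters also took in 26 clones of 20 genes, such as Cdk2ap1, Cdc37, Cdc42se2 and Poldip2. Their symbols begin the same way but fell outside the role groups used below, and they are described apart. The groups were made by symbol, so that of the kinases also holds Cdk8, which acts in transcription.

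The cells were IMT11 ES cells. Undifferentiated cells kept in medium with leukaemia inhibitory factor (LIF), the cytokine that holds mouse ES cells undifferentiated, made up the Day 0 condition (D0). EBs were started as hanging drops of 1000 cells and collected after 1, 2, 3 or 4 days. They were grown with LIF (named D1+LIF to D4+LIF by day) or lacking it (D1-LIF to D4-LIF), so that all 9 conditions came from the same line and differed in day and LIF. Each condition had 2 arrays, one with the sample labelled in Cy3 and one in Cy5, each hybridised against a pool in the other dye. The labels describe the pool as EBs with and without LIF, and the study's methods as equal parts of all samples. The labels state that there were 2 biological sets and that array repeats used different RNA, but not which array held which set, so a difference between the 2 arrays of a condition holds dye, RNA and set together. A level below is log2 of sample over pool, centred at the median of all clones on its slide, and a change is a difference of such levels. The sources used here do not state which channel was divided by which. Sample over pool is the likely reading, since the labels put the sample first. Pool over sample would turn every sign. A ratio of the same dye over the other on every array would turn the arrays of 1 dye only. That reading is given below as the Cy3 arrays turned in sign. EBs are mixtures, and in such bulk RNA fewer cells of a type and less RNA per cell cannot be told apart.

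Cyclins are the regulatory subunits that switch cyclin-dependent kinases on at set stages of the cell cycle. Before S phase, the origin recognition complex, Cdc6 and the Mcm helicase are loaded onto origins, and in S phase the polymerases, the clamp Pcna, its loader replication factor C and ribonucleotide reductase copy the genome. Cyclin B with Cdk1, the Aurora and Polo-like kinases and the Bub checkpoint proteins then run mitosis, until the anaphase-promoting complex destroys the cyclins. Mouse ES cells are known for fast cycles with a short G1 phase, and G1 lengthens as they differentiate.

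Promoters of these genes are known for E2F sites, CCAAT boxes and the CHR element, which drive the rise of transcripts before S phase and in G2. Of the 83 genes, 71 had an entry in RefSeq's table of promoters (assembly GRCm38.p6), each 250 bases before to 50 bases after a gene's start. Both strands were searched for the CCAAT box (CCAAT), the CHR element (TTTGAA) and E2F cores, which were spelt TTCGCGC in one form, TTGGCGC in another, and as further forms TTCCCGC as well as the letters TTGCCGC. The E2F core TTGGCGC can overlap a CCAAT box read on the other strand, and TTGGCGCGAA holds overlapping cores on both strands. A CCAAT box lay in 60.6% of the 71 promoters, against 37.9% of all 27018 in the table. An E2F core lay in 29.6% against 9.69%, and a CHR element in 23.9% against 18.1%. CCAAT boxes and E2F cores were in 80.0% and 70.0% of the 10 promoters of fork and synthesis genes and in 83.3% and 50.0% of the 12 of licensing genes. Of the 7 promoters of mitotic kinases and checkpoint genes, 57.1% held a CHR element and 85.7% a CCAAT box. A match is a description of letters, not a site of binding. Upstream parts of 4 promoters follow, chosen because the clones of these genes carry results given further on. Cdk1 (chr10:69352913-69353162, minus strand) had the lowest member change against D0, Rfc1 (chr5:65335640-65335889, minus strand) the smallest p in the comparison of D4+LIF with D0, and Mcm6 (chr1:128359706-128359955, minus strand) and Rrm2 (chr12:24708004-24708253, plus strand) stand for licensing and synthesis. Each runs 5′ to 3′ along its gene's strand for the 250 bases before the start, with the motifs in capitals.
Cdk1: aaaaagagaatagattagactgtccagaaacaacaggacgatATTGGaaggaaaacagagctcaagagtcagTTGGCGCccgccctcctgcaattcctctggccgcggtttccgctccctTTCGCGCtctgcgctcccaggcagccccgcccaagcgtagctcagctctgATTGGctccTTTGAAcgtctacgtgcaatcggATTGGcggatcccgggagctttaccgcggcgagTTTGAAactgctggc
Rfc1: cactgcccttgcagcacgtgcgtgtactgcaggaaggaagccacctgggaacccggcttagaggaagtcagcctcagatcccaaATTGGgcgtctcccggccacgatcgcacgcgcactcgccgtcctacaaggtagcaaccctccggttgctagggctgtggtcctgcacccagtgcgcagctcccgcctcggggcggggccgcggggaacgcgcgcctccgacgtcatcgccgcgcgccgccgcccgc
Mcm6: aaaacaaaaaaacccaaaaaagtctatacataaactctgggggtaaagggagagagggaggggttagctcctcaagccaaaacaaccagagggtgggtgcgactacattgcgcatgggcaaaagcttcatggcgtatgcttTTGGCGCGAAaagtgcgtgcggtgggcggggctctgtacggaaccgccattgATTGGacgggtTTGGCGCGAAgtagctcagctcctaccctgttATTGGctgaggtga
Rrm2: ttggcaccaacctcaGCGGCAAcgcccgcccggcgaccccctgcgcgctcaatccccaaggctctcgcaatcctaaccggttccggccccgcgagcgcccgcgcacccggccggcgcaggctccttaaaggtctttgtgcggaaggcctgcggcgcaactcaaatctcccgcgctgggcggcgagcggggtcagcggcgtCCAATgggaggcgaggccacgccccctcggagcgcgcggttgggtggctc
In the Cdk1 stretch the capitals mark 3 CCAAT boxes, all read as ATTGG, 2 CHR elements and 2 E2F cores. The Mcm6 stretch holds 2 CCAAT boxes and 4 E2F cores in overlapping pairs. The Rrm2 stretch holds 1 CCAAT box and 1 E2F core read on the other strand, and the Rfc1 stretch holds 1 CCAAT box. The shares above also count the 50 bases after the start, which are not shown. With them Rfc1 had 2 CCAAT boxes and 2 E2F cores, and Mcm6 had 5 E2F cores.

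On 3 arrays slide 1 stood apart before any comparison, and this touches every result on slide 1. Slide 1 of the D0 Cy3 array had an SD of 2.23 over all clones on the log2 scale. On that slide the members had a median of 1.69 and reached 4.78, where the members of slide 2 on the same array had a median of 0.17. Slide 1 of the D1+LIF Cy5 array lacked values for 12 members and had an SD of 2.40, and slide 1 of the D2-LIF Cy5 array lacked 55 of the 62 members printed there. Slide 2 of the D4+LIF Cy5 array was also broad, with an SD of 1.41. Most counts and medians are therefore also given without slide 1 of the 3 arrays, a setting chosen after seeing the data. There, slide 1 of D0 rested on its Cy5 array alone, and slide 1 of D1+LIF and D2-LIF on their Cy3 arrays alone. On slide 1 the changes of D1+LIF and D2-LIF against D0 then rested on the dye term, with no pair of the same dye.

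**Figure D1:**
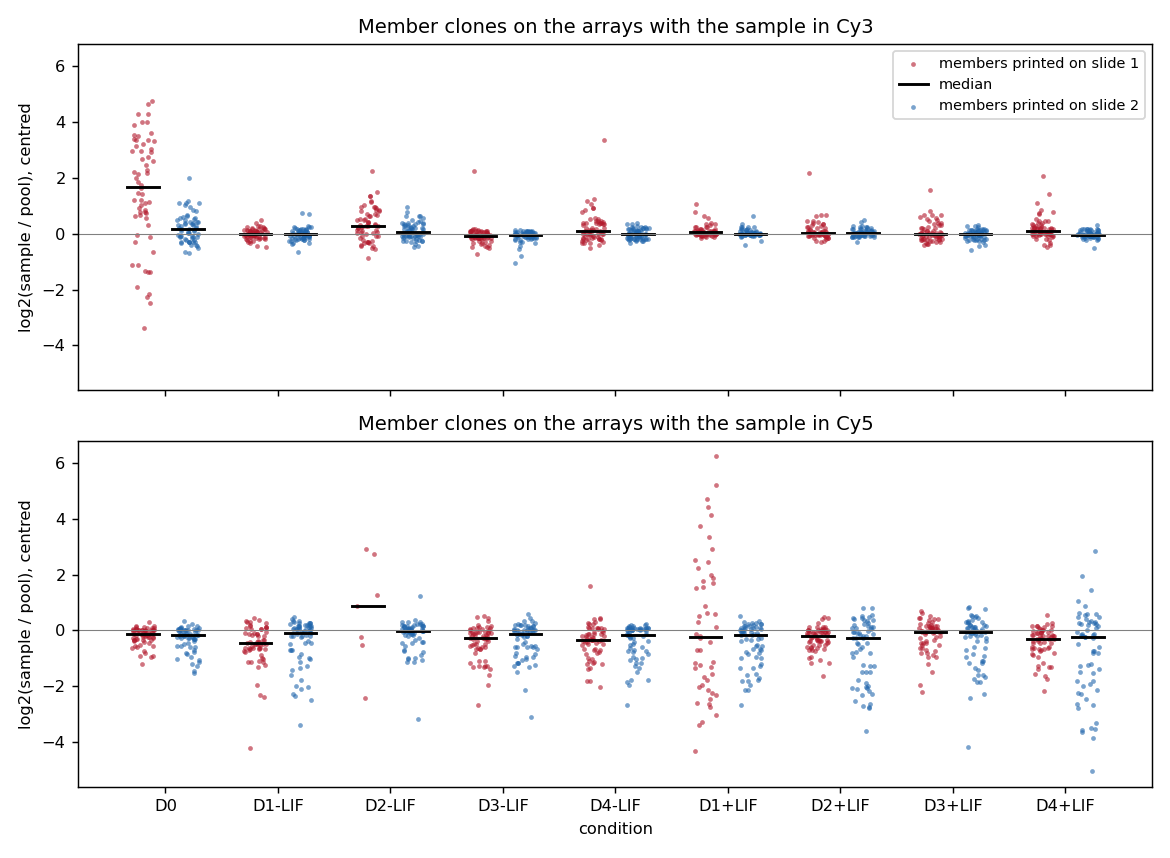
Level of each member clone (centred log2 of sample over pool) on each array, with the sample in Cy3 above and in Cy5 below, for slide 1 (red) and slide 2 (blue). Bars are medians. Slide 1 of D0 in Cy3 spreads from -3.36 to 4.78 and sits high, slide 1 of D1+LIF in Cy5 spreads likewise, and most Cy5 medians lie below 0.

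The members' levels differed by the dye of the sample. The median Cy5 minus Cy3 difference of a member was -0.39, and 85 of 125 (68.0%) were lower with the sample in Cy5, against a median of 0.005 and 49.6% of all clones and -0.13 and 58.2% of clones with 1 symbol. Averaged over conditions, 66 members (52.8%) read above the median of their slide on Cy3 arrays and below it on Cy5 arrays. Of all clones 36.5% did so, and of clones with 1 symbol 43.9%. The reverse held for 26 members and for 5529 of the 15360 clones. In all, 73.6% of members and 72.5% of all clones lay on opposite sides by dye. The Cy5 minus Cy3 difference was -0.78 at the median for fork and synthesis genes, lower in Cy5 for 14 of 17 clones. It was 0.05 for the anaphase-promoting complex with Cdc25 and Cdc14. Between the 2 arrays of a condition, the members' levels correlated at -0.44 for D0 and 0.50 for D3-LIF, the lowest and the highest of the 9 conditions, as a description over clones. A dye term stood in the fit, so the changes below are means over both dyes.

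Against D0, no member passed an adjusted p of 0.05 in limma's fit in any of the 8 EB conditions, and no clone of the 15360 did (0% called). Without the adjustment, 23 members were lower and 6 higher in D1-LIF at p under 0.05, where 13.5% of all clones were lower and 8.37% higher. In D2-LIF, D3-LIF and D4-LIF these numbers were 7 and 5, 21 and 3, and 11 and 2 members, beside 3.14% and 4.51%, 12% and 6.74%, and 7.17% and 4.64% of all clones. With LIF, 23 members were lower and 9 higher in D1+LIF (10.7% and 9.88% of all clones), 25 and 2 in D2+LIF (11% and 7.01%), 16 and 8 in D3+LIF (11.2% and 10.1%), and 28 and 9 in D4+LIF (15.3% and 11.3%). Without the 3 slides the counts were smaller and their balance differed. Lower and higher members then numbered 11 and 5 in D1-LIF (9.64% and 4.67% of all clones), 3 and 7 in D2-LIF (2.65% and 3.83%), 9 and 2 in D3-LIF (6.69% and 3.77%) and 5 and 3 in D4-LIF (2.53% and 2.19%). With LIF they were 3 and 4 in D1+LIF (3.11% and 3.41%), 16 and 2 in D2+LIF (6.44% and 4.02%), 11 and 7 in D3+LIF (7.42% and 5.47%), and 20 and 10 in D4+LIF (10.6% and 11%). In D2-LIF and D1+LIF the lower members thus no longer outnumbered the higher ones. All 8 comparisons share the D0 arrays, so their counts are not separate evidence. The calls turned on the D0 Cy5 array. Without it, D0 rested on the broad Cy3 array alone, and 33 to 46 members were called in each EB condition, where 22.6% to 36.4% of all clones were. The smallest adjusted p of a member was 0.110, for Rfc1 clone a in D4+LIF, and that of Cdk1 in D1-LIF was 0.145.

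The median change of the members lay below 0 in each EB condition on all arrays, and the sign did not hold under other scalings. It was -0.40, -0.10, -0.36 and -0.24 for D1-LIF to D4-LIF and -0.24, -0.43, -0.32 and -0.55 for D1+LIF to D4+LIF, where the median over all clones stayed within -0.02 to 0.03 and over clones with 1 symbol within -0.16 to -0.04. Without the 3 slides the members' medians ran from -0.17 to 0.05, with equal spread on each slide from -0.11 to 0.05, and after quantile normalization from -0.16 to 0.05. With each array centred over both slides they ran from -0.15 to 0.11 and with the Cy3 arrays turned in sign from 0.12 to 0.23. As deposited they ran from 0.15 to 0.59, below all clones, which ran from 0.24 to 0.96. On all arrays the size also differed by slide. In D4+LIF it was -0.81 over the 62 members of slide 1 and -0.19 over the 63 of slide 2, and in D1-LIF it was -1.02 and 0.07.

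The share of members below D0 on both dyes was above that of all clones in 7 of the 8 EB conditions. Every Cy3 pair uses the D0 Cy3 array, on whose slide 1 the members had a median of 1.69, and this share is given on all arrays only. In D4+LIF 71 of 125 (56.8%) were lower on the Cy3 pair and the Cy5 pair alike, against 35% of all clones and 42.5% of those with 1 symbol. In D2-LIF, where 70 members had both arrays, the share was 22.9% against 23.0%. In the other EB conditions it was 33.6% to 48.8%, against 29.6% to 33.7% of all clones. D0 was the condition with the highest mean for 61 members (48.8%, against 28.8% of all clones), and without the 3 slides for 34 (27.2% against 20.4%), when D2-LIF was the highest for 35 (28% against 20.7%). D0 and D4+LIF were each the lowest for 27 members (21.6%), where D0 was the lowest for 30.9% of all clones and D4+LIF for 16.2%. Without the 3 slides D0 was the lowest for 22 members (17.6% against 17.8%) and D4+LIF for 29 (23.2% against 17.5%).

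**Figure D2:**
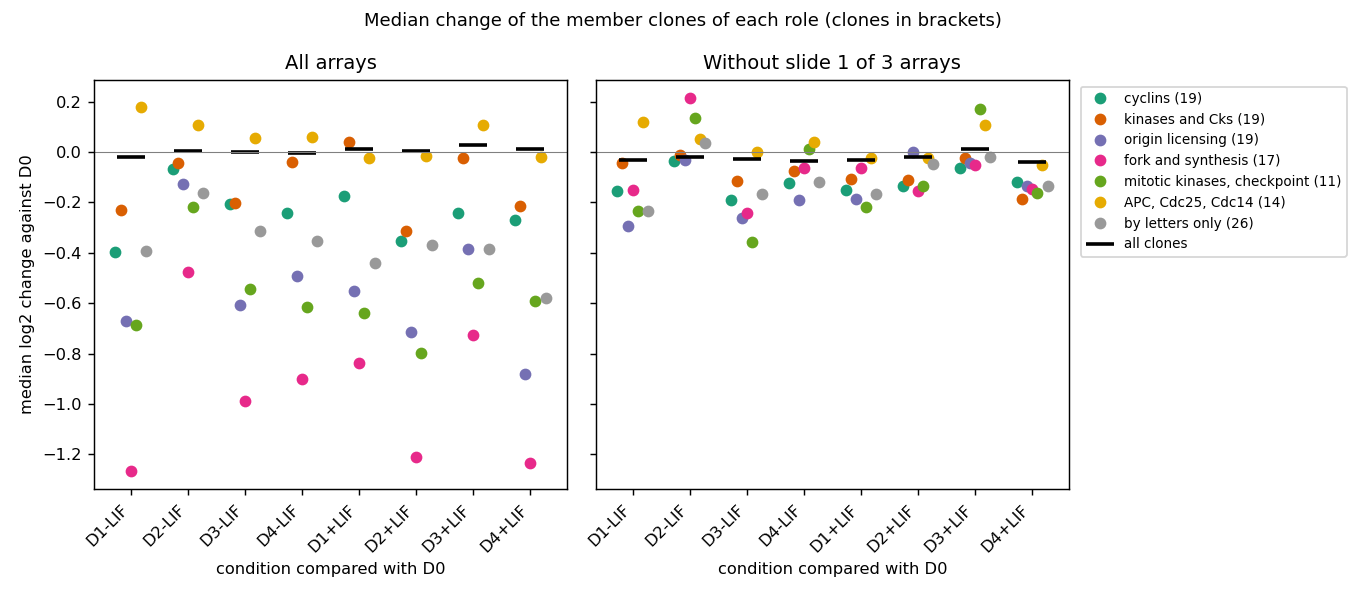
Median log2 change against D0 of the member clones of each role in the 8 EB conditions, on all arrays (left) and without slide 1 of 3 arrays (right), with the median of all 15360 clones as a black bar. Fork and synthesis genes run from -1.27 to -0.48 on the left and from -0.24 to 0.21 on the right, so that sign and size depend on those slides, and with the Cy3 arrays turned they run from 0.17 to 0.87.

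Among the cyclins (19 clones, 8 genes) the median change ran from -0.40 to -0.07 on all arrays and from -0.19 to -0.03 without the 3 slides, and it was above 0 in every EB condition as deposited or with the Cy3 arrays turned. In D4+LIF 3 of the 19 cyclin clones were lower at p under 0.05 (15.3% of all clones) and none was higher (11.3%). Without the 3 slides 1 was lower (10.6%) and 1 higher (11%). The 3 clones of Ccna2, the cyclin of S phase and G2, had changes of -0.90 to -0.77 in D4+LIF. Clone c, on slide 2, read 1.11 (Cy3) and -1.47 (Cy5) in D0, 0.26 and -0.86 in D4-LIF, and 0.05 and -2.15 in D4+LIF. Both D4+LIF arrays lay below the D0 array of the same dye, but the D4+LIF Cy3 array lay above the D0 Cy5 array, so the conditions overlapped. Its change was -0.87 (SE 0.33, adjusted p = 0.163), and it was positive under equal spread per slide, under quantile normalization and with the Cy3 arrays turned. Ccnf clone b, of the F-box cyclin F that marks proteins for destruction in G2, read 3.22 and -0.11 in D0, 0.43 and -1.17 in D4-LIF, and 0.08 and -1.39 in D4+LIF. Its change in D4+LIF was -2.21 (SE 0.68, adjusted p = 0.139) and -1.0 without the 3 slides. The D0 Cy3 level, from the slide that stood apart, was the highest of its arrays. Ccnd1, the G1 cyclin that answers to mitogens, read -0.23 and 0.02 in D0 and -0.04 and -0.17 in D4+LIF. The change was 0.00 (SE 0.18), and its levels on the EB arrays ran from -0.50 to 0.45, both ends on Cy5 arrays with LIF.

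The kinases and their small Cks subunits (19 clones, 16 genes) had medians from -0.31 to 0.04 against D0, from -0.19 to -0.01 without the 3 slides, and above 0 in all conditions as deposited. In D4+LIF 5 were lower (15.3% of all clones) and 1 was higher (11.3%) at p under 0.05. Cdk1, the kinase that starts mitosis, read 4.02 in Cy3 and -0.31 in Cy5 in D0, -0.13 and -4.21 in D1-LIF, and 0.02 and -4.33 in D1+LIF. On Days 2 to 4 its Cy3 levels ran from -0.22 to 0.95 and its Cy5 levels from -2.44 to -0.99. Both D0 arrays stood above all EB arrays of the same dye, and the D0 Cy5 array lay below every EB Cy3 array. In D1-LIF the change was -4.03 (SE 0.98, adjusted p = 0.145), and in D1+LIF -4.01 with an adjusted p of 0.178. In D4+LIF it stood at -2.49 with an adjusted p of 0.17. Without the 3 slides these were -2.71, -1.36 and -1.17, where the -1.36 set a Cy3 array of D1+LIF against the Cy5 array of D0. With the Cy3 arrays turned the D4+LIF change was 1.50. Cdk4 clone a, of the kinase that pairs with D-type cyclins in G1, read 0.43 and -0.76 in D0, -0.17 and -1.85 in D4-LIF, and -0.50 and -3.63 in D4+LIF. Each D4 array lay below the D0 array of its dye. Its change in D4+LIF was -1.90 (SE 0.51, adjusted p = 0.120), and that of Cdk4 clone b, on the same slide, was -0.59 (SE 0.30, adjusted p = 0.203).

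Origin recognition and licensing genes (19 clones, 12 genes) had medians from -0.88 to -0.13, from -0.29 to -0.0011 without the 3 slides, and above 0 throughout as deposited and with the Cy3 arrays turned. In D4+LIF 5 clones were lower (15.3% of all clones) and 2 higher (11.3%) at p under 0.05. The Mcm2 to Mcm7 proteins form the replicative helicase, and their clones did not read alike. Mcm6 stood at 1.11 and -0.80 in D0, 0.12 and -0.48 in D4-LIF, and 0.04 and -2.45 in D4+LIF. The D4-LIF Cy5 array was above the D0 one, and the D4+LIF Cy5 array was the lowest of all 18. Its change in D4+LIF was -1.36 (SE 0.47, adjusted p = 0.147) and in D4-LIF -0.33. Mcm2 read 1.04 and -1.22 in D0 and -0.02 and -2.63 in D4+LIF, a change of -1.24 (SE 0.45, adjusted p = 0.156) that was 0.05 under equal spread per slide. On slide 1, Mcm5 read 3.63 and -0.76 in D0 and 0.35 and -1.17 in D4+LIF, and its change of -1.85 was -0.21 without the 3 slides. The D0 Cy3 array again held the highest level. Mcm3 clone a, also on slide 1, was at -1.64 with the 3 slides and -0.20 without them, while Mcm3 clone b on slide 2 was at -0.88 (SE 0.34, adjusted p = 0.165). Mcm7 lay near the median of its slide, at 0.18 and -0.30 in D0 and 0.17 and -0.50 in D4+LIF, with a change of -0.11 (SE 0.25).

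Some members of this group read higher than in D0. Mcm9, a paralogue of the helicase subunits with a part in DNA repair, was at -0.44 and -0.12 in D0, -0.20 and 0.05 in D4-LIF, and 0.01 and 0.50 in D4+LIF. On the Cy3 side D2-LIF lay lower than D0, at -0.48, and the other Cy3 arrays and all Cy5 arrays lay above the D0 array of their dye. The change in D4+LIF was 0.53 (SE 0.17, adjusted p = 0.141). Orc4 clone c, of a subunit of the origin recognition complex, read -0.52 and 0.32 in D0 and 0.19 and 1.44 in D4+LIF, where the Cy5 array was the highest of all 18. Its change was 0.91 (SE 0.29, adjusted p = 0.139), against 0.88 and -1.0 for the other clones of Orc4. The 3 clones of Orc2, another subunit, had changes of -1.08 to -0.25.

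The fork and synthesis genes (17 clones, 12 genes) had the lowest medians of the roles on all arrays, from -1.27 in D1-LIF to -0.48 in D2-LIF, from -0.24 to 0.21 without the 3 slides, and from 0.17 to 0.87 with the Cy3 arrays turned. The median over all clones stayed within -0.02 to 0.03 on all arrays. Against the same D0 arrays each time, 13 or 14 of the 17 fork and synthesis clones lay below D0 in each EB condition. Without the 3 slides 3 clones were lower and 1 higher in D4+LIF at p under 0.05 (10.6% and 11% of all clones). In D4+LIF on all arrays 5 were lower and 1 was higher (15.3% and 11.3%). Rfc1 clone a, of the large subunit of the clamp loader, had the smallest p of any member there. On the Cy3 arrays it read 1.16 in D0, -0.18, 0.97, -0.80 and 0.20 on Days 1 to 4 without LIF, and 0.65, 0.42, -0.44 and -0.02 with LIF. On the Cy5 arrays it read -1.52 in D0, -3.37, -3.16, -3.10 and -2.67 without LIF, and -2.68, -3.59, -4.16 and -5.04 with LIF. D0 was the highest of the 9 conditions on each dye, and every Cy5 level lay below every Cy3 level. The change in D4+LIF was -2.35 (SE 0.55, adjusted p = 0.110), made of -1.18 on the Cy3 arrays and -3.52 on the Cy5 arrays, and it ranged from -3.22 to -0.08 over 31 other settings. Rfc1 clone b, on the same slide, read -0.39 and -0.11 in D0 and 0.06 and 0.63 in D4+LIF, a change of 0.60 (SE 0.19, adjusted p = 0.139) with the opposite sign.

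Most of the other named synthesis genes lay on slide 1. Rrm2 clone c, of the small subunit of ribonucleotide reductase, which makes deoxynucleotides, read 4.78 and -1.21 in D0, 1.24 and -1.34 in D4-LIF, and 1.12 and -1.62 in D4+LIF. The D0 Cy3 array was far above the rest, and the D0 Cy5 array lay within the EB Cy5 arrays. Its change of -2.03 in D4+LIF was 0.06 without the 3 slides. Rrm1, the large subunit, read 3.32 and -0.61 in D0, and its change of -1.64 was -0.09 without the 3 slides. Pcna, the sliding clamp, read 4.30 and -0.80 in D0, 1.06 and -2.04 in D4-LIF, and 0.72 and -1.55 in D4+LIF, changes of -2.24 and -2.16 that were -0.67 and -0.59 without the 3 slides. All of these had their highest level on the D0 Cy3 array, and Pcna and Rrm1 had no value on the D2-LIF Cy5 array. Top2a, the topoisomerase that untangles chromosomes before mitosis, gave different values by clone. Clone b on slide 2 read 0.86 and -0.60 in D0 and 0.12 and -3.53 in D4+LIF, a change of -1.83 (SE 0.54, adjusted p = 0.132). Clone a on slide 1 had a change of 0.22 (SE 0.89).

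**Figure D3:**
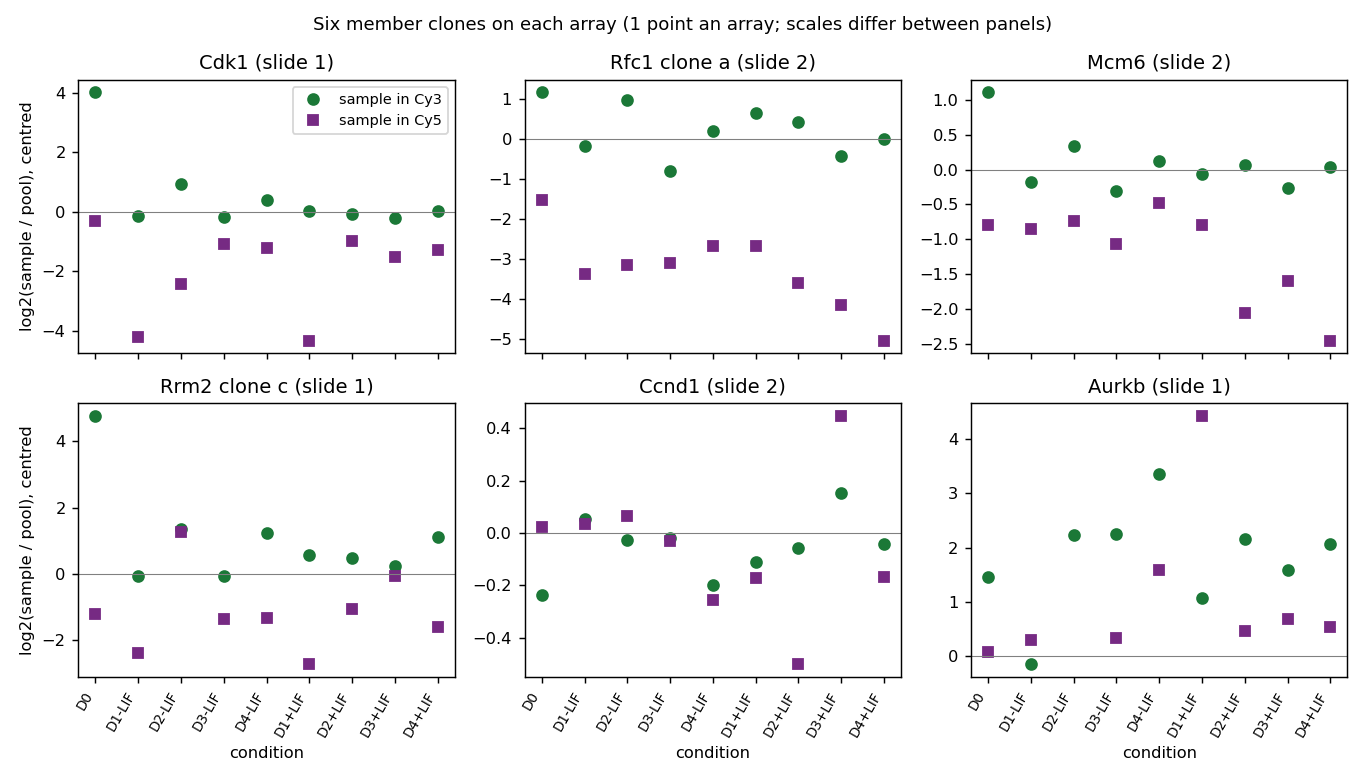
Level (centred log2 of sample over pool) of 6 member clones on each array, with green circles for the sample in Cy3 and purple squares for Cy5. The scales differ between panels. D0 in Cy3 is the highest point for Cdk1 (4.02), Rfc1 clone a (1.16), Mcm6 (1.11) and Rrm2 clone c (4.78), while Ccnd1 stays between -0.50 and 0.45, and Aurkb peaks at 4.43 on the D1+LIF Cy5 array and 3.36 on the D4-LIF Cy3 array.

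Mitotic kinases and checkpoint genes (11 clones, 8 genes) had medians from -0.80 to -0.22, from -0.36 to 0.17 without the 3 slides, and above 0 in each EB condition as deposited and with the Cy3 arrays turned. In D4+LIF 4 were lower at p under 0.05 (15.3% of all clones), and 1 was without the 3 slides (10.6%). Bub1 clone b, of a kinase of the spindle checkpoint, read 0.56 and -0.31 in D0, 0.18 and -1.16 in D4-LIF, and 0.06 and -2.78 in D4+LIF. All EB arrays lay below the D0 array of their dye. Its change in D4+LIF was -1.48 (SE 0.45, adjusted p = 0.134), and that of Bub1 clone a was -0.59 (SE 0.32). Aurkb, the kinase of the chromosomal passenger complex, is a gene the study itself names from these arrays. It read 1.46 and 0.08 in D0, -0.14 and 0.30 in D1-LIF, 2.24 in D2-LIF with no Cy5 value, 2.26 and 0.34 in D3-LIF, and 3.36 and 1.58 in D4-LIF. With LIF it read 1.07 and 4.43, 2.17 and 0.46, 1.58 and 0.69, and 2.08 and 0.54 on Days 1 to 4. Only the D1-LIF Cy3 array lay below 0, the median of its slide. The highest level, on the D1+LIF Cy5 array, came from a slide that stood apart. Aurkb in D4-LIF was the only member at least 2-fold from the pool in all 4 spots of a condition, where 9 of 15360 clones were as far above it. Its change in D4-LIF was 1.70 (SE 1.14, adjusted p = 0.520), and 1.78 without the 3 slides, where D0 rested on its Cy5 array alone. The slope of Aurkb over Days 1 to 4 without LIF was 0.66 log2 per day on all arrays and 0.68 without the 3 slides. On all arrays limma's F test over the 9 conditions gave an unadjusted p of 0.478. Plk4, the kinase of centriole duplication, stayed within -0.71 to 0.72 on all arrays with a value.

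The anaphase-promoting complex with its activators and the Cdc25 and Cdc14 phosphatases (14 clones, 7 genes) lay near D0, with medians from -0.02 to 0.18, from -0.05 to 0.12 without the 3 slides, and from 0.24 to 0.84 as deposited. In D4+LIF 1 clone was higher (11.3% of all clones) and none lower (15.3%) at p under 0.05. Without the 3 slides 1 was higher (11%) and 1 lower (10.6%). The clone higher on all arrays, Cdc27 clone b, of a core subunit of the complex, read -0.39 and -0.16 in D0 and 0.08 and 0.23 in D4+LIF, a change of 0.43 (SE 0.16, adjusted p = 0.165). Both D4+LIF arrays lay above both D0 arrays. Cdc25a, the phosphatase that removes the brake on Cdk2 and Cdk1, had 4 clones on slide 1 with changes of -0.57 to 1.08. Its clone c lacked the D2-LIF Cy5 array, and read -1.32 and 0.16 in D0 and 1.88 on the D1+LIF Cy5 array. The change of clone c in D1+LIF was 1.49 (SE 0.44, adjusted p = 0.178). Without the 3 slides it was 0.11, from a Cy3 array of D1+LIF set against the Cy5 array of D0. The clones taken in by letters alone had medians from -0.58 to -0.16, from -0.23 to 0.04 without the 3 slides, and from 0.29 to 0.67 as deposited. Among them Cdk2ap1, a protein that binds Cdk2, read 0.39 and -0.59 in D0 and -0.15 and -2.01 in D4+LIF (change -0.98, SE 0.56). Cdc42se2 clone b, of a small effector of the GTPase Cdc42, read -1.36 and -0.17 in D0 and -0.08 and 0.28 in D4+LIF (change 0.86, SE 0.27).

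Fitted on slide 2 alone, which leaves out slide 1 of all arrays, the comparison of D4+LIF with D0 called 12 of 63 members at an adjusted p of 0.05, a share of 19%, beside 17.1% of the 7680 clones of that slide. Of these 9 fell (8.79% of the clones of the slide did) and 3 rose (8.29%). Those that fell were Rfc1 clone a (adjusted p = 0.0252), Cdk8, Cdk4 clone a, Cks2, Top2a clone b, Bub1 clone b, Poldip2, Orc6 and Cks1b clone a, and those that rose were Rfc1 clone b, Orc4 clone c and Mcm9. Cdk8, Cks2, Poldip2, Orc6, Cks1b clone a and Rfc1 clone b were singled out after their values were seen. Cks2 and Cks1b are small subunits that bind Cdk1 and Cdk2. Cks2 read 0.68 and -0.17 in D0 and -0.13 and -3.48 in D4+LIF, a change of -2.06. Orc6, the smallest subunit of the origin complex, read 0.82 and -1.01 in D0 and 0.16 and -3.84 in D4+LIF. Cdk8, a kinase of the Mediator complex that acts in transcription, read 2.00 and -1.12 in D0 and -0.15 and -3.55 in D4+LIF. All 9 that fell lay below D0 on both dyes, and the lowest level of each was that of the D4+LIF Cy5 array, whose slide 2 was broad.

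Within the EBs no member passed the threshold in limma for a trend over days or for LIF, and no clone did (0% called). The slope over Days 1 to 4 had a median of -0.01 log2 per day both without and with LIF. At an unadjusted p under 0.05 no member had a slope without LIF (1.27% of all clones) and 1 had a slope with LIF (4.12%), Rfc1 clone a at -0.53 per day (SE 0.17, adjusted p = 0.662). With the 3 slides left out 7 members had a slope without LIF (5.16%) and 2 with LIF (4.89%). Averaged over Days 1 to 4, EBs without LIF differed from EBs with LIF by a median of 0.05 over members and -0.02 over all clones. At p under 0.05 4 members were higher without LIF (1.46% of all clones) and none lower (1.97%). They were Plk4 at 0.35 (SE 0.11), Bub1 clone a at 0.45 (SE 0.16), Cks1b clone a at 0.66 (SE 0.25) and Bub1 clone b at 0.50 (SE 0.22), each with an adjusted p of 0.867. Without the 3 slides 10 members were higher (3.91%), these 4 among them, and 6 were lower (5%), which were Ccng1 clone a, Cdc5l clone b, Cdk2ap2, Mcm10 clone a, Mcm9 and Orc2 clone a, at -0.34 to -0.18 with an adjusted p of 0.511 each. Bub1 clone a read 0.01, 0.22, -0.02 and 0.19 on the Cy3 arrays without LIF and -0.03, -0.05, -0.01 and 0.15 with LIF, which overlapped. On the Cy5 arrays it read -0.24, 0.04, -0.83 and -0.61 without LIF and -1.19, -1.48, -0.96 and -1.27 with LIF, which did not overlap. At Day 4 alone 2 members were higher and 4 lower without LIF at p under 0.05, where 2.32% and 5.27% of all clones were. The higher ones were Rfc1 clone a (1.29) and Ccna2 clone c (0.75), and the lower ones Ccnd2 clone e (-1.39), Cdc73 clone b (-1.07), Orc4 clone c (-0.76) and Cdk5 (-0.43), each with an adjusted p of 0.633. These counts were 6 and 6 without the 3 slides (5.1% and 7.31%). Over all 9 conditions the F test gave 1 member at p under 0.05, Rfc1 clone a, where 3.92% of all clones passed, and no clone after adjustment. It gave 5 (7.51%) without the 3 slides.

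Clones of the same gene could be set beside each other. Over the 9 condition means, all pairs of clones correlated above 0.5 in 6 of the 30 genes with more than 1 clone, and at least 1 pair correlated below 0 in 16. The median over genes of the lowest pair was -0.02, as a description over 9 means that share arrays. The 3 clones of Rrm2, all on slide 1, lay on the same side of D0 in all 8 EB conditions (r 0.79 to 0.89), with changes of -2.03 to -0.56 in D4+LIF. The 3 of Ccna2 did so in 7. The 6 clones of Ccnd2, a G1 cyclin, had changes of -0.27 to 1.28, the 3 of Ccng1, a p53 target, of -0.77 to 0.58, and the 3 of the phosphatase Cdc14b of -0.21 to 0.13, so that each of these genes had clones on both sides of D0. Those of Rfc1 ran against each other (r = -0.80). The stretch of transcript that each clone covers was not used here.

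**Figure D4:**
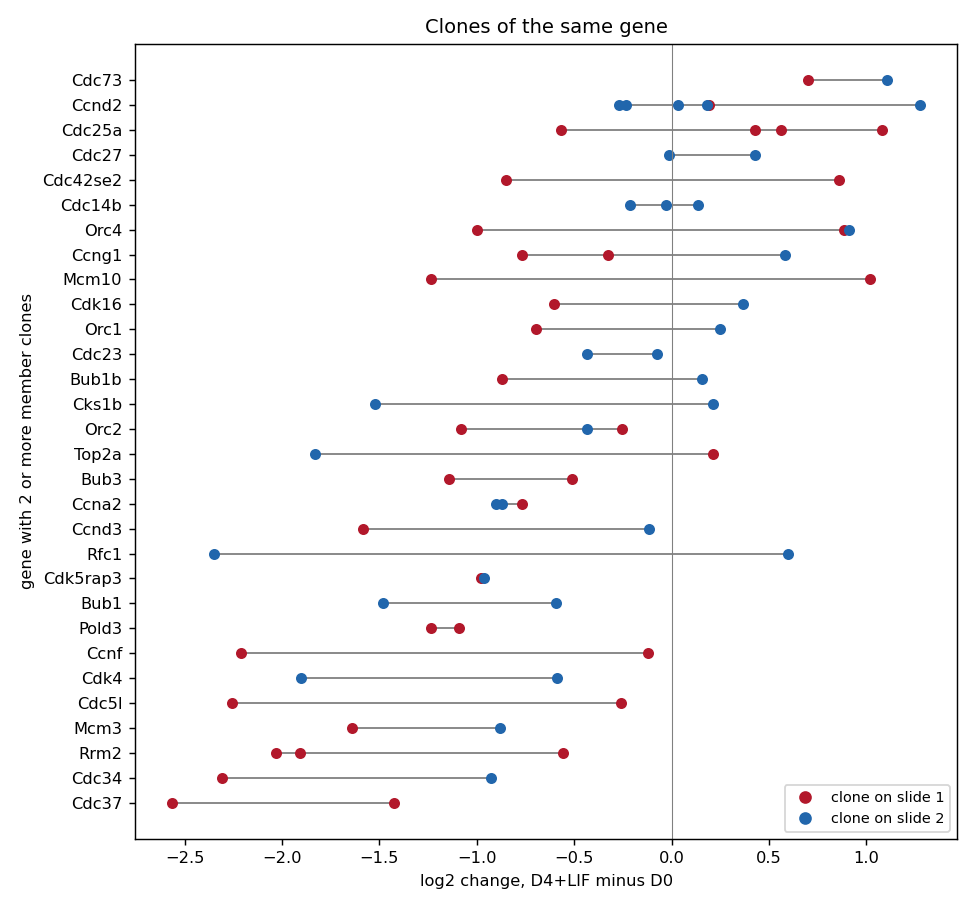
Log2 change, D4+LIF minus D0, of each clone of the 30 genes with 2 or more member clones, coloured by slide. Genes are ordered by the midpoint between their lowest and highest change. Clones of Rrm2 (-2.03 to -0.56) lie on one side of 0, while those of Rfc1 (-2.35 and 0.60), Orc4 (-1.0 to 0.91) and Cdc25a (-0.57 to 1.08) lie on both.

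Other cell cycle genes outside the letters of the rule were taken from a list of 116, of which 93 were measured with 138 clones. None passed the threshold against D0 in limma. In D4+LIF 38 were lower and 12 higher at an unadjusted p under 0.05, where 15.3% and 11.3% of all clones were. The members were read against the same D0 arrays, so the lists are not separate evidence. Beside -0.55 for the members, the median change of these 138 clones was -0.53. The smallest F test p among them was that of Dnmt1 (0.000524, adjusted p = 0.786), the methyltransferase that copies DNA methylation behind the fork, and its D0 levels were close on both dyes. It read -1.15 and -1.31 in D0 and between -0.28 and 0.28 on every EB array with a value, the D2-LIF Cy5 array having none. Every EB array therefore lay above both D0 arrays. The change was 1.07 (SE 0.17, adjusted p = 0.0764) in D1-LIF and 1.29 (SE 0.17, adjusted p = 0.0954) in D4+LIF. Dnmt1 lay on slide 1, so its D0 Cy3 and D1+LIF Cy5 levels came from slides that stood apart. Its change without the 3 slides is not given here. Timeless clone b, of a fork protection protein, read 0.99 and -1.22 in D0 and -0.24 and -3.25 in D4+LIF. Hmgb2, a chromatin protein of dividing cells, read 1.00 and -1.0 in D0 and 0.17 and -3.93 in D4+LIF.

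The labels were set beside markers of the cell types that such cultures could hold. Of 18 listed markers of undifferentiated ES cells, 9 genes were measured with 11 clones, and their median change against D0 ran from -1.94 to -0.89, with 8 to 10 of 11 clones lower. None passed the threshold. Pou5f1, which encodes the pluripotency factor Oct4, had a mean level of 1.97 in D0, 1.25 in D2-LIF and from -1.54 to 0.01 in the other EBs, and 9 of the 11 clones shared slide 1 of the D0 Cy3 array that stood apart. Extraembryonic endoderm was covered by 13 of 20 genes (28 clones), with medians from -0.44 to -0.17. In D4+LIF 8 of these clones were lower and 2 higher at an unadjusted p under 0.05 (15.3% and 11.3% of all clones). Of its markers, Gata4 and Gata6 stayed within -0.74 to 0.42 in every condition mean, and Sparc had the smallest p in D4+LIF. Primitive ectoderm and mesendoderm (3 of 10 genes), neurectoderm (2 of 5), fibroblasts (5 of 7) and red cells (3 of 4) had medians in D4+LIF of 0.06, -1.06, 0.06 and 0.45. At an unadjusted p under 0.05, 2 of 9 fibroblast clones and 4 of 7 red cell clones were higher there, and none of them was lower. The part of cell composition in the members' changes was not tested.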

How the data were processed

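RNA of IMT11 ES cells and EBs was hybridised with a pooled control to spotted cDNA arrays of 2 slides, 18 arrays in 9 conditions. Before deposit, the authors scaled both channels to their means and formed ratios of sample and pool for each spot, with every clone printed in duplicate. Ratios were taken to log2 and centred at the median of each slide of each array, and the duplicate spots were averaged. Control spots were left out. Because values are ratios to a pool of the same cells, a change shared by all conditions is not seen, and centring sets the median of all clones to 0.

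Levels were fitted over all 15360 clones with limma 3.58.1 in R 4.3.3, with 9 conditions and a dye term, moderated errors and Benjamini-Hochberg adjustment at 0.05. Clones lacking an array were fitted on the arrays they had. The dye marks the replicate number, so the dye term is also the replicate block. The fit was tested on simulated data in which a clone had the same spread on every array. That test does not cover the unequal spread of the real slides. With 2 arrays per condition and 8 residual degrees of freedom, the number of arrays limits the precision, and p-values measure the spread between these arrays. The members and lists were chosen with earlier results of these data known. Genes named were, for each role, the 2 clones with the smallest F test p, a fixed list of 15 genes (2 of them not measured) and all genes with 3 or more clones, 51 clones in all, and any other was named after its values were seen. Alternatives changed the centring, scaling, dye term, array weights, handling of duplicates, filters, unit, samples, sign and threshold, and left out each array in turn. Symbols came from GEO's annotation of the platform, and 124 of 125 member symbols matched RefSeq.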

Additional observations from a re-analysis of the deposited data

How the results depend on the processing

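The members called past an adjusted p of 0.05 were 0 in every comparison, and 397 of 427 values under alternatives were 0 too, among them those without the dye term, which is the replicate block (0 members), and those with other centring or scaling, array weights, a 2-fold limit, gene means, turned Cy3 arrays and the setting without slide 1 of 3 arrays, which was chosen after seeing the data. The 2-fold limit was laid on the calls of the main fit, so its values, counted in the 427, could only be 0. With duplicate spots kept apart (correlation 0.757), 32, 1, 26 and 17 members were called in D1-LIF to D4-LIF, 27, 30, 25 and 43 in D1+LIF to D4+LIF, and 24 in the F test. These were 25.6%, 0.8%, 20.8%, 13.6%, 21.6%, 24%, 20%, 34.4% and 19.2% of the members, beside 19.9%, 1.05%, 17.1%, 10.7%, 18.7%, 17%, 18.2%, 28.4% and 10.8% of all clones. In D4+LIF 2 of 70 (2.86%, against 6.13% of all such clones) were called over clones with values on all arrays and 12 of 63 (19% against 17.1%) on slide 2. Leaving out each array in turn gave 0 to 42, 0 to 33, 0 to 39 and 0 to 34 members in D1-LIF to D4-LIF, 0 to 39, 0 to 40, 0 to 42 and 0 to 46 in D1+LIF to D4+LIF, and 0 to 18 in the F test (14.4% at the highest, against 15.1% of all clones), with the highest each time without the D0 Cy5 array, when 22.6% to 36.4% of all clones were called against D0. Calls were also made in D2-LIF without the D2-LIF Cy3 array (3 of 70 members, 4.29% against 2.75% of all clones), in D1+LIF without the D1+LIF Cy3 array (21 of 113, 18.6% against 16.4%) and in D4+LIF without the D4+LIF Cy3 array (23, 18.4% against 18.7%). D0 without its Cy5 array rests on the Cy3 array alone, assumed to vary like the other conditions. The slope without LIF stayed at 0, the slope with LIF gave 0 to 17 (15% against 13% of all clones at the highest) and the LIF effect 0 to 7 (6.19% against 5.11%), both highest without the D1+LIF Cy3 array, and the D4 difference 0 to 15 (12% against 11.6%), highest without the D4+LIF Cy3 array. Of the 51 named clones, the change in D4+LIF kept its sign under every setting that gave it a value for 9, all on slide 2: Rfc1 clone a, Cdk4 clone a, Top2a clone b, Bub1 clone b, Mcm6, Mcm3 clone b, Cdk2ap1, Mcm9 and Orc4 clone c. The cause of these dependences was not tested. Signal over background was not used here.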
